A study of Mus musculus with 16 samples.

Results

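The genes of vomeronasal transduction followed here numbered 7 of the 24340 listed in both the count and the RPKM tables: the cation channels *Trpc2*, *Cnga4*, *Trpm4* and *Trpm5*, the calcium-activated chloride channels *Ano1* and *Ano2*, and the chloride transporter *Slc12a2*. The rule takes them by symbol from the pathway and uses no measured value. RNA came from the vomeronasal organ (VNO) of mice of the Hsd:ICR background at 12 weeks of age, from generation 88 of a selection experiment. The 4 High Runner (HR) lines, numbered 3, 6, 7 and 8, had been bred for voluntary wheel running, and the 4 Control lines, numbered 1, 2, 4 and 5, had not been selected. Each line gave 1 male and 1 female library, each from the pooled VNOs of 3 mice of that sex, so the 16 libraries hold 8 lines, individual mice cannot be told apart, and the lines are the units of selection.

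The VNO detects pheromones and other social odors. In its sensory neurons, receptors couple to the G proteins Gαi2 or Gαo and to phospholipase C. The cation channel TRPC2 opens downstream and calcium enters. Calcium then opens the chloride channels ANO1 and ANO2, and because the transporter NKCC1, the product of *Slc12a2*, loads cells with chloride, chloride leaves and adds to the depolarization. TRPM4 and TRPM5 are cation channels that calcium opens from inside and that pass monovalent ions. TRPM5 is best known from taste cells and from solitary chemosensory cells of the nasal lining, and CNGA4 is an accessory subunit of the cyclic nucleotide-gated channel of main olfactory neurons.

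Libraries held from 15998552 to 70875276 counted reads, with a median of 37366329. The 6 marker genes of vomeronasal sensory neurons were measured in every library, and *Omp*, the marker of mature neurons, lay between 716 and 1406 RPKM (reads per kilobase of transcript, scaled by library size). The gland genes *Lcn3*, *Lcn4*, *Obp2a* and *Obp2b* took from 0.125% to 15.6% of the counts. The female and male tables were scaled apart, with female RPKM higher by 0.06 on the log2 scale over 9517 genes, so the sexes were compared on counts scaled by library size with TMM factors (CPM), or for *Trpc2* on RPKM brought to 1 scaling.

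*Trpc2*, the gene of the cation channel that opens downstream of the receptors, had 0 counts in each of the 16 libraries. The RPKM tables placed it at rank 136 of 24340 genes. In the female libraries of the Control lines its deposited RPKM was 324 in line 1, 382 in line 2, 289 in line 4 and 263 in line 5. In those of the HR lines it was 321 in line 3, 306 in line 6, 331 in line 7 and 360 in line 8. The female libraries of the HR lines thus lay within the range of those of the Control lines. In males the Control lines gave 381 in line 1, 417 in line 2, 282 in line 4 and 299 in line 5, and the HR lines 259 in line 3, 308 in line 6, 390 in line 7 and 356 in line 8. The tables therefore disagree on whether *Trpc2* has reads, and only the RPKM values could be used for it. Of the 2574 genes with 0 counts in all libraries, 26 had an RPKM of at least 1 in every library, and *Trpc2* had the second highest mean RPKM among the 2574.

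The annotation at *Trpc2* showed a gene without exon bases of its own. In GENCODE M21 on GRCm38, the build of the deposited alignments, *Trpc2* (ENSMUSG00000100254.1) lies on the plus strand at chr7:102083116-102096396 with 1 transcript of 13 exons and 2874 bases. Exon 1, which holds the start codon, has 71 bases, all of them inside the last exon of *Xndc1*. Exons 2 to 13 hold 2803 bases, or 97.53% of the transcript, and all lie within exons of *Xntrpc*, a read-through gene that joins *Xndc1* to *Trpc2*. Of 2800 words of 75 bases, the read length, 70 occur in no other gene, and all 70 cross the junction from exon 1 to exon 2. The sequences around that junction are shown because they are the place where a read tells the 3 genes apart. In each, 15 bases precede the splice position and 15 follow, and capitals mark the start of *Trpc2* exon 2, at chr7:102083861.
Trpc2 exon 1 to exon 2: atggaccccctttcgCCACAGCCCAACTGG
Xntrpc into the same exon: ccccttgtccccaagCCACAGCCCAACTGG
Xndc1 last exon at the same place: atggaccccctttcggtaagagacccctgc
The first 15 bases of the *Trpc2* sequence begin with the start codon and are also those of *Xndc1*, and the last 15 are also those of *Xntrpc*. For contrast, the first 75 bases of exon 3, at chr7:102086398-102086472, are shown as a word that carries *Trpc2* signal without telling it apart. They occur in 4 of 4 *Xntrpc* transcripts.
Trpc2 exon 3, first 75 bases: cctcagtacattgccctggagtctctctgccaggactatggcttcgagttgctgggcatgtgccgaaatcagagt

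*Xntrpc* also had 0 counts in all 16 libraries, and its RPKM was 0 to 0.947. *Xndc1*, whose exons outside the shared part can be counted, had 104 to 602 counts and 5.87 to 8.40 RPKM. The RPKM of the locus thus stood almost wholly under *Trpc2*. To give the RPKM a scale in reads, each library was calibrated on 252 genes with 1 transcript of 2000 to 4000 bases and at least 200 counts, and *Trpc2* RPKM then corresponded to 10463 to 70644 reads per library. This is a conversion and not a count. The table of males lists 372655 to 1159181 reads per library as ambiguous between genes, and the converted reads equal 4.67% to 6.88% of them. Whether the reads of *Trpc2* are among these was not tested. The other 6 genes share no exon base with a gene on the same strand. Their counts divided by their RPKM gave median lengths from 2277 bases for *Cnga4* to 6380 bases for *Slc12a2*, so both tables held reads for them. *Trpm5* overlaps a gene on the opposite strand, *Tssc4*, over 220 bases or 3.439% of its exon bases. *Tssc4* had 276 to 1667 counts, and whether the counting used the strand is not given in the sources used here.

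**Figure D1:**
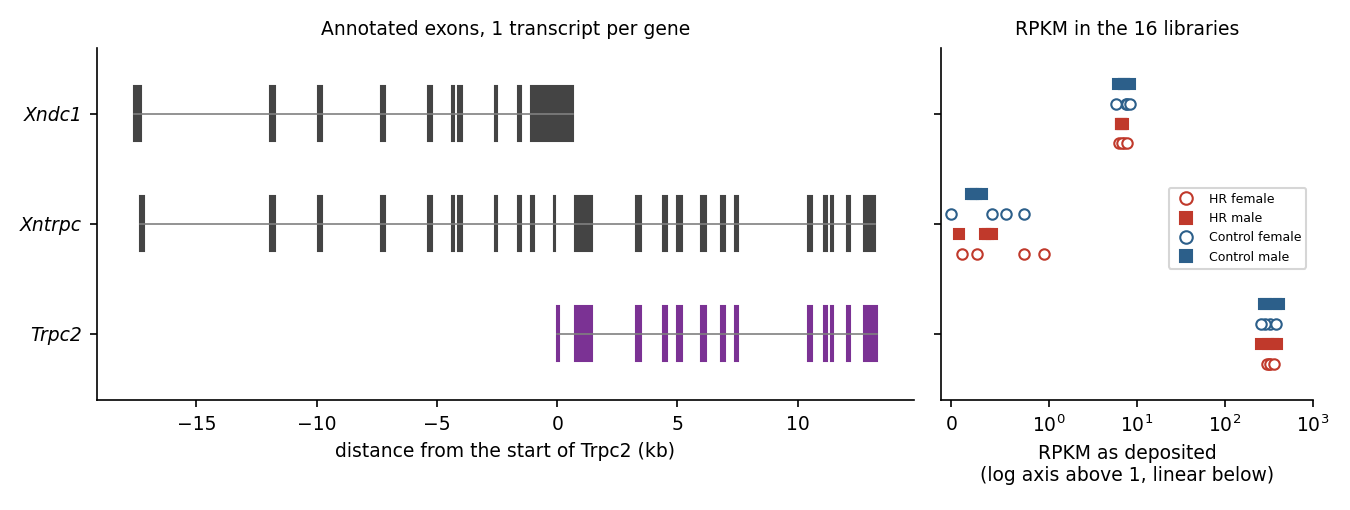
Left, exons of *Xndc1*, *Xntrpc* and *Trpc2* (boxes, 1 annotated transcript per gene) by distance from the start of *Trpc2* in kb. Right, deposited RPKM of each gene in the 16 libraries, on an axis that is logarithmic above 1 and linear below. *Trpc2* exon 1 stands under the last *Xndc1* exon and the other 12 under *Xntrpc* exons, and the RPKM values are 259 to 417 for *Trpc2* and under 1 for *Xntrpc*.

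Per length, the channels spread over more than 3 orders of magnitude, with nearly the same order in each library. On deposited RPKM, the mean over 16 libraries was 329 for *Trpc2* (259 to 417) and 153 for *Slc12a2* (114 to 174). *Ano2* had a mean of 48.2 RPKM (34.4 to 57.1) and *Ano1* one of 46.2 RPKM (37.9 to 50.2). *Cnga4* followed at 30.4 RPKM (20.9 to 42.0) and *Trpm4* at 8.09 RPKM (5.64 to 10.4). *Trpm5* was lowest at 0.235 RPKM (0.0533 to 0.512), which rested on 10 to 103 counts per library. Every neighbour in this order was higher than the next in 16 of 16 libraries except *Ano2* over *Ano1*, which held in 11 of 16. Over the 8 lines the log2 ratio of *Ano2* to *Ano1* was 0.05 ± 0.27 (SD, n = 8), a difference within the spread between lines (*p* = 0.617, exact two-sided sign-flip test).

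**Figure D2:**
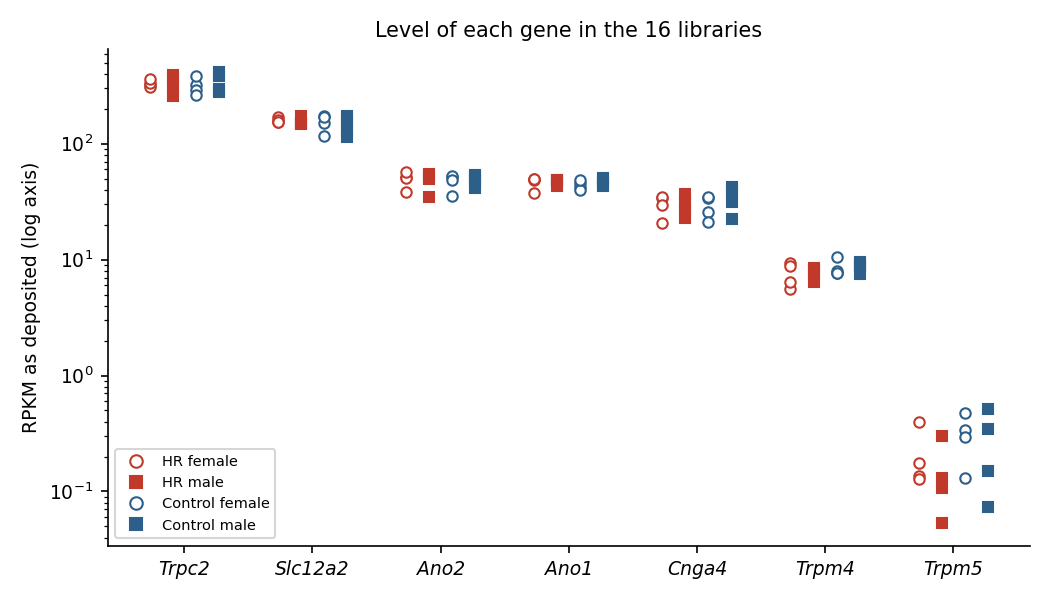
Deposited RPKM (log axis) of the 7 genes in each of the 16 libraries, with open circles for females and filled squares for males, red for HR and blue for Control lines. The groups overlap for every gene, and *Trpm5* lies below 1 RPKM in all libraries.

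The ratio of the chloride channels varied by line. *Ano2* over *Ano1*, on RPKM, was 0.785 in the female and 0.705 in the male library of HR line 3, and 0.720 and 0.948 in those of Control line 5. The male library of Control line 4 gave 0.908, and its female library 1.21. In the other 11 libraries *Ano2* was the higher of the pair, up to 1.34 in the female library of HR line 7. The sum of both genes spanned 83.3 to 107 RPKM. HR and Control lines did not differ detectably in the log2 ratio (-0.02, *p* = 0.943, exact two-sided permutation test over 8 lines).

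The relatives of the channels give these levels a context. Of 10 anoctamins, *Ano10* had a mean of 49.0 RPKM, as high as *Ano1* and *Ano2*, followed by *Ano8* at 14.4, *Ano9* at 9.94 and *Ano6*, a lipid scramblase, at 6.09 RPKM. *Ano5* was listed at no more than 0.0918 RPKM but had 103 to 597 counts, so its tables disagree in the direction opposite to *Trpc2*. Among TRPC genes, *Trpc1* had 22.1 RPKM. Among TRPM genes, the widely expressed *Trpm7* (18.9 RPKM) stood above *Trpm4*, and *Trpm3* had 6.68 RPKM. *Cngb1*, a partner of *Cnga4* in olfactory channels, had 33.9 RPKM, and the ratio of *Cnga4* to *Cngb1* was 0.545 to 1.22. *Cnga2*, the main subunit of the olfactory channel, was at a mean of 0.273 RPKM, with 155 counts in the male library of HR line 3, 132 in that of Control line 5 and 0 to 44 in the other 14. The transporter family was led by *Slc12a2* and by *Slc12a7*, which carries potassium and chloride outward, at 114 RPKM. *Slc12a8* (21.4 RPKM), *Slc12a9* (10.6), *Slc12a4* (4.51) and *Slc12a5* (1.71) were lower. *Slc12a5*, the chloride extruder of central neurons, was thus far below *Slc12a2* on the RPKM scale.

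HR and Control lines were then compared, the question of the selection experiment. All 6 genes with counts passed the filter on low counts, and *Trpc2*, at 0 counts, could not. No channel passed the test: 0 of 6 were called by edgeR at an adjusted *p* of 0.05, where 0.0242% of 16507 genes were called, and 0 of 6 had an unadjusted *p* under 0.05 (3.3% of all genes). DESeq2 called 0 of 6, where it called 30 of 16507 genes. Limma-voom with a random line effect called 0 of 6, where it called 0 of 16507 genes. The adjusted *p* of all 6 was 0.9997 in edgeR. The differences of HR minus Control lines were small for *Ano1* (log2 0.04, SE 0.06), *Ano2* (0.03, SE 0.11), *Cnga4* (-0.07, SE 0.15) and *Slc12a2* (0.09, SE 0.10). These edgeR errors take both libraries of a line as separate samples. *Trpc2* on RPKM gave 329 ± 36 (SD, n = 4 lines) in HR and 330 ± 57 in Control lines (*p* = 0.971, exact two-sided permutation test over 8 lines), and limma on log2(RPKM + 1) across 13911 genes gave 0.01 (SE 0.15, adjusted *p* = 0.9999), where 0.00719% of genes were called. In bulk tissue, fewer cells of a type and less RNA per cell cannot be told apart, in this and the following comparisons.

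The larger estimates belonged to the calcium-activated cation channels *Trpm4* and *Trpm5*, and neither was distinguishable from 0. *Trpm4* was 31.5 ± 5.6 CPM in the 4 HR lines and 35.8 ± 4.4 CPM in the 4 Controls (SD; log2 -0.18, SE 0.11, unadjusted *p* = 0.114 in edgeR). *Trpm5* was 0.780 ± 0.476 CPM (SD) in HR lines and 1.25 ± 0.60 CPM in Controls (log2 -0.68, SE 0.41, unadjusted *p* = 0.118 in edgeR). HR line 3 stood with the higher Control lines, and without it the *Trpm5* difference was -1.19 (unadjusted *p* = 0.0100, adjusted *p* = 0.493 in edgeR) and the *Trpm4* difference -0.27 (unadjusted *p* = 0.0311, adjusted *p* = 0.530 in edgeR). These fits take both libraries of a line as separate samples. Of the HR lines, line 3 had the highest mean of both genes, so leaving it out was bound to make both differences more negative. The smaller *p* of these fits therefore adds no support. For *Trpm4*, HR line 6, at a mean of 35.4 CPM, lay close to line 3, at 36.7 CPM. Over lines, without HR line 3, the exact two-sided permutation test on log2(RPKM + 1) gave *p* = 0.143 for *Trpm5* and *p* = 0.200 for *Trpm4*. Limma on line means without HR line 3 left *Trpm5* untested, since its RPKM was too low for the filter. It put 0 of the other 6 genes, *Trpc2* among them, at an unadjusted *p* under 0.05, where 370 of 13911 genes were. In edgeR without Control line 2 the *Trpm5* difference was -0.91 (unadjusted *p* = 0.0485, adjusted *p* = 0.882 in edgeR). Line 2 had the lowest *Trpm5* mean of the Control lines, so that *p* adds no support either. Of the markers of solitary chemosensory cells none passed the test, and 4 of the 4 tested had a negative HR minus Control log2 difference (median -0.70), with *Pou2f3* at -1.16 (unadjusted *p* = 0.0448, edgeR), *Gnat3* at -1.05 (unadjusted *p* = 0.0608, edgeR), *Avil* at -0.35 and *Sh2d7* at -0.04, each at an adjusted *p* of 0.9997 in edgeR. Other marker lists were also negative throughout. They were smooth muscle and vessel (5 of 5, median -0.52), ciliated cells (5 of 5, -0.49) and immature neurons (5 of 5, -0.33). Negative values were 1 of 6 for vomeronasal neurons, 1 of 5 for gland, 1 of 5 for main olfactory neurons and 0 of 3 for blood and immune cells. The part of any of these cell types in the *Trpm5* difference was not tested. With all 8 lines on log2(RPKM + 1), where the added 1 shrinks a gene as low as *Trpm5*, the exact two-sided permutation test over 8 lines gave *p* = 0.286 for *Trpm4* and *p* = 0.200 for *Trpm5*, and the smallest *p* this test allows is 0.0286.

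The same comparison within each sex moved no gene past the threshold. For *Trpm4* the difference was -0.21 (SE 0.12) in males and -0.16 (SE 0.18) in females, and for *Trpm5* -0.81 (SE 0.65) and -0.55 (SE 0.49). *Cnga4* had opposite signs, -0.18 (SE 0.21) in males and 0.05 (SE 0.20) in females, both within 1 SE of 0. The interaction of sex and linetype, which tests this difference, called 0 of 6 genes in edgeR, where 0% of 16507 genes were called. At an unadjusted *p* under 0.05 it was also 0 of 6, against 0.394% of genes, and DESeq2 called 0 of 6, where it called 0 of 16507 genes.

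**Figure D3:**
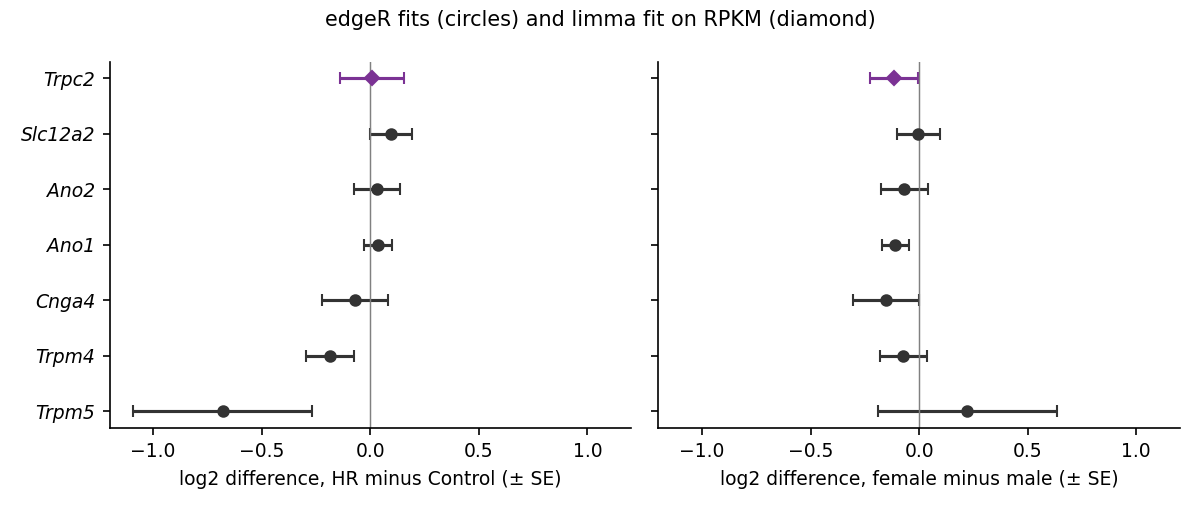
Log2 difference of HR minus Control lines (left) and of female minus male libraries (right) with SE, from edgeR on counts (circles) and, for *Trpc2*, from limma on log2(RPKM + 1) (diamond). *Trpm5* has the widest error at 0.41 on the left, and no gene passed the threshold in either comparison.

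No channel was called between the sexes. edgeR called 0 of 6 genes, where 0.188% of 16507 genes were called, and at an unadjusted *p* under 0.05 it was also 0 of 6, against 8.08% of genes. DESeq2 called 0 of 6, where it called 180 of 16507 genes. With line as a replicate block edgeR also called 0 of 6, where 0.545% of genes were called, with 1 of 6, *Ano1*, at an unadjusted *p* under 0.05, against 16.7% of genes. *Ano1* was higher in the male than in the female library of 8 of 8 lines, a pattern shared by 1.81% of the genes tested. The female minus male difference of *Ano1* was -0.11 on the log2 CPM scale (*p* = 0.00781, exact two-sided sign-flip test over 8 lines, the smallest it allows), with an adjusted *p* of 0.201 over all genes in the blocked edgeR fit. On deposited RPKM, where the sexes were scaled apart, it was -0.06 (*p* = 0.133, exact two-sided sign-flip test). In the female and male library it was 168 and 200.8 CPM in HR line 7, 177.8 and 209 CPM in Control line 4 and 187.7 and 204 CPM in Control line 2. In the other 5 lines it was 208 to 219 CPM in females and 222 to 233 CPM in males. *Trpc2* was higher in males in 7 of 8 lines, with HR line 3 the exception, by 0.12 on the log2 scale of RPKM under 1 scaling (*p* = 0.0859, exact two-sided sign-flip test). Without line 3 the female minus male difference was -0.17 (*p* = 0.0156, the same exact test). Leaving out the only exception fixed that *p* at the smallest the test then allows, so it adds no support. *Trpc2* was not called by limma with line as a block (adjusted *p* = 0.397), where 0.482% of genes were called. *Slc12a2* was nearly level between the sexes, at 0.00 (SE 0.10). Sex and sequencing run may coincide here, since each deposited table held 8 libraries of 1 sex, and cannot be told apart.

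Differences among lines passed the test for some channels. A test among all 8 lines, each represented by its 2 libraries, called 3 of 6 channels at an adjusted *p* of 0.05 in edgeR, where 26.3% of 16507 genes were called, and all 6 had an unadjusted *p* under 0.05 (42.7% of genes). The genes called were *Trpm4* (adjusted *p* = 0.0177 in edgeR), *Cnga4* (0.0311) and *Ano2* (0.0448). *Slc12a2* (0.0519), *Trpm5* (0.0711) and *Ano1* (0.0732) missed the threshold, which does not show that they were alike in the lines. DESeq2 called all 6, where it called 42.7% of genes. *Trpc2* was not called by limma on log2(RPKM + 1) (adjusted *p* = 0.0824), where 22.3% of 13911 genes were called. Its unadjusted *p* of 0.0261 in limma is under 0.05, as for 40.7% of genes. The calls could change with 1 line left out, as did those over all genes, 4344 with all lines. Without HR line 7, edgeR called 0 of 6 channels, with 5 of 6 at an unadjusted *p* under 0.05, where it called 3068 of 16549 genes. Without Control line 2 it called only *Trpm4*, where it called 3072 of 16561 genes.

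*Trpm4* was lowest in HR line 7. In the female libraries of the Control lines it was 31.7 CPM in line 1, 32.1 in line 2, 31.4 in line 4 and 43.4 in line 5, and in the males 31.3, 38.2, 37.7 and 40.5 CPM in the same order. In the HR females it was 38.4 CPM in line 3, 35.6 in line 6, 23.1 in line 7 and 26.5 in line 8, and in the males 34.96, 35.2, 26.6 and 31.3 CPM. Line 7 was lowest and line 5 highest in both sexes. Among all genes tested, 28.2% had the same line lowest in both sexes and 28.4% the same line highest.

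*Cnga4* was lowest in Control line 2 and HR line 7, 1 of each kind. The female and male libraries had 46.2 and 51.2 CPM in line 2 and 45.4 and 52.7 CPM in line 7. The other Control lines had 56.1 and 94.3 CPM in line 1, 74.5 and 70.6 CPM in line 4 and 75.8 and 86.6 CPM in line 5. The other HR lines had 74.6 and 70.3 CPM in line 3, 75.5 and 83.1 CPM in line 6 and 64.5 and 61.5 CPM in line 8. The 4 libraries of lines 2 and 7 lay below the other 12, though the female library of line 1, at 56.1 CPM, lay nearer to them than to its own male. The ratio of *Cnga4* to *Cngb1* was likewise lowest in line 2, at 0.545 and 0.631, and next in line 7, at 0.649 and 0.670, with the female of line 1 at 0.673.

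*Ano2* and *Slc12a2* each had a low line. *Ano2* was 148 and 135 CPM in the female and male library of HR line 3, and 136 and 186 CPM in those of Control line 5. Its other HR lines had 189.6 and 192 CPM in line 6, 187.5 and 207 CPM in line 7 and 213 and 215 CPM in line 8. Its other Control lines had 193 and 200.5 CPM in line 1, 191 and 209.6 CPM in line 2 and 178.7 and 161 CPM in line 4. HR line 8 was highest in both sexes, and the libraries of line 5 were far apart. *Slc12a2* was 706 and 721 CPM in Control line 4, below the other 14 libraries. The other Control lines had 916 and 991 CPM in line 1, 1044 and 1116 CPM in line 2 and 1061 and 820 CPM in line 5. The HR lines had 950 and 954 CPM in line 3, 1027 and 1105 CPM in line 6, 964 and 964 CPM in line 7 and 946 and 964 CPM in line 8.

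*Trpm5* was low and uneven. Its female and male libraries had 1.43 and 0.340 CPM in Control line 1, 0.515 and 0.671 in line 2, 1.16 and 2.26 in line 4 and 2.04 and 1.58 in line 5. In the HR lines they had 1.65 and 1.32 CPM in line 3, 0.596 and 0.341 in line 6, 0.548 and 0.560 in line 7 and 0.727 and 0.492 in line 8. Lines 3, 4 and 5 were high in both sexes, and line 1 only in its female. *Gnat3* and *Pou2f3*, markers of solitary chemosensory cells, had 126 and 45 counts in that female library and 14 and 9 in the male of line 1.

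**Figure D4:**
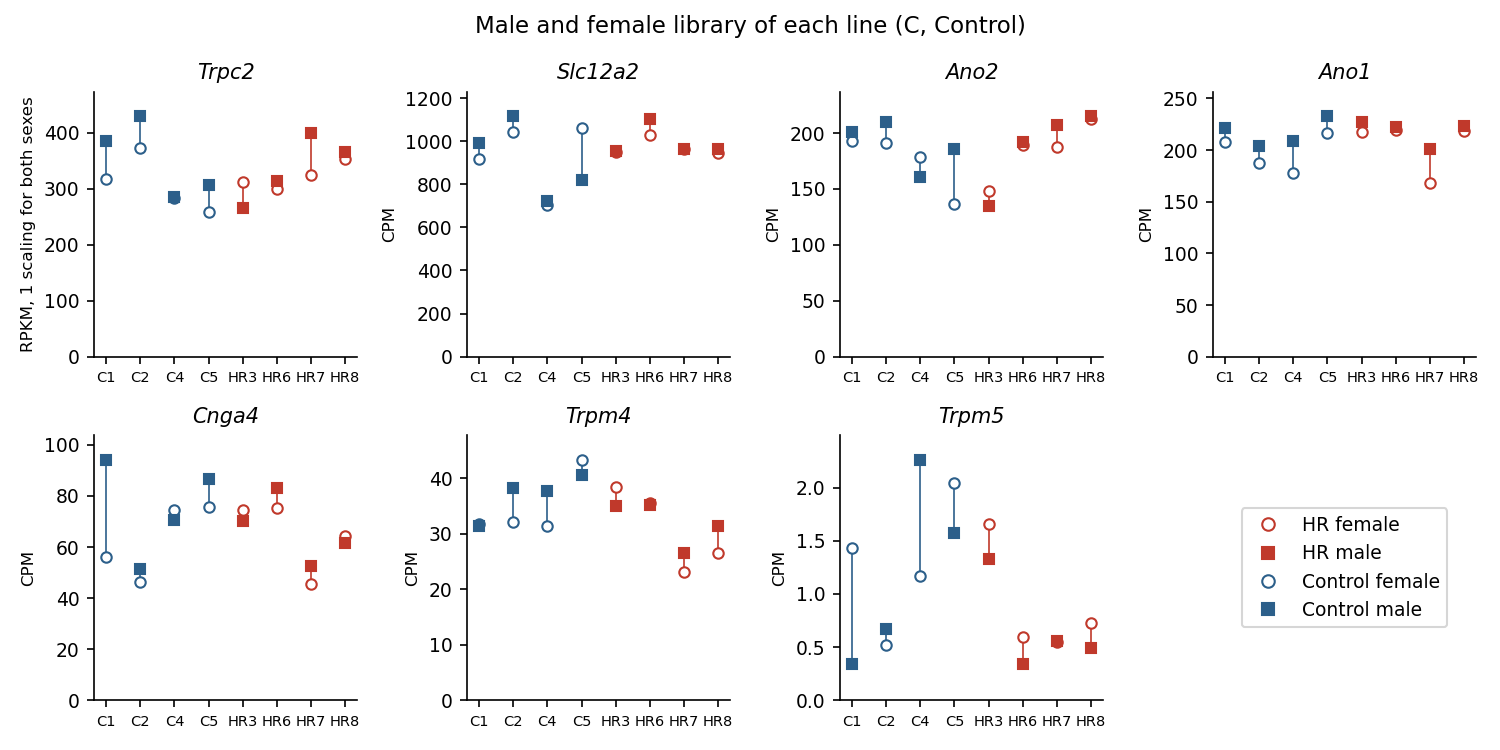
Values of the 7 genes in the female (open circle) and male (square) library of each line, joined by a line, in CPM or, for *Trpc2*, in RPKM under 1 scaling for both sexes. *Cnga4* is low in lines 2 and 7, *Trpm4* in line 7, and *Slc12a2* in line 4, in both sexes.

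The profiles of the channels over the lines fell on different sides of the cell markers, as a description without a test, since libraries share tissue composition and depth. The mean log2 level of the 6 neuron markers over the 8 lines had a Pearson *r* of 0.97 with *Ano2* (Spearman rho 1) and of 0.92 with *Trpc2* (rho 0.86), and 0.67% and 3.43% of all genes tested followed the markers as closely. Without the 2 lines farthest from the median of the channel, *r* was 0.97 and 0.91. For *Slc12a2* *r* was 0.43 (rho 0.67) and for *Ano1* -0.31 (rho -0.43). *Cnga4* (*r* = -0.65, rho -0.62), *Trpm4* (*r* = -0.67, rho -0.74) and *Trpm5* (*r* = -0.85, rho -0.60) had negative values, as far from 0 as in 23.1%, 22.2% and 10.2% of genes. With the 4 tested markers of solitary chemosensory cells *r* was 0.85 for *Trpm5* (rho 0.76, *r* = 0.57 without the 2 farthest lines), as high as in 3.77% of genes. For *Trpm4* *r* was 0.82 (0.41 without its 2 farthest lines) and for *Cnga4* 0.79 (0.58), as high as in 5.28% and 7.85% of genes. *Trpm4* had a like *r* with the gland markers (0.81) and those of smooth muscle and vessel (0.80). So did *Cnga4* with the markers of main olfactory neurons (0.77) and ciliated cells (0.76). Of the main olfactory markers, *Cnga2* had an *r* of 0.73 with *Cnga4*, and *Cngb1* went the other way at -0.30. Over the 16 libraries *r* of *Cnga4* was 0.51 with the main olfactory, 0.26 with the ciliated and 0.39 with the chemosensory markers. *Trpm5* had an *r* of 0.87 with the smooth muscle and vessel markers (0.76 without the 2 farthest lines), 0.75 with those of ciliated cells and 0.74 with those of blood and immune cells. *Trpc2* and *Ano2* followed each other (*r* = 0.81, rho 0.86), and *Trpc2* and *Cnga4* ran in opposite directions (*r* = -0.82, rho -0.81). Over the 16 libraries these *r* were 0.79 and -0.45. The HR and Control lines overlapped in the summed RPKM of the neuron markers, 1810 to 2811 in HR and 1510 to 2742 in Control libraries, and of the chemosensory markers, 0.475 to 2.05 and 0.480 to 4.58. Of the 5 chemosensory markers 4 were tested, *Gnat3* had 12 to 126 counts, and *Chat* had 0 to 16. The part of these cell types in the line differences was not tested. Scaled to *Omp*, the *Trpc2* level was 0.256 to 0.367 of it in every library, and the HR minus Control difference of that log2 ratio was -0.04 (*p* = 0.629, exact two-sided permutation test over 8 lines).

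**Figure D5:**
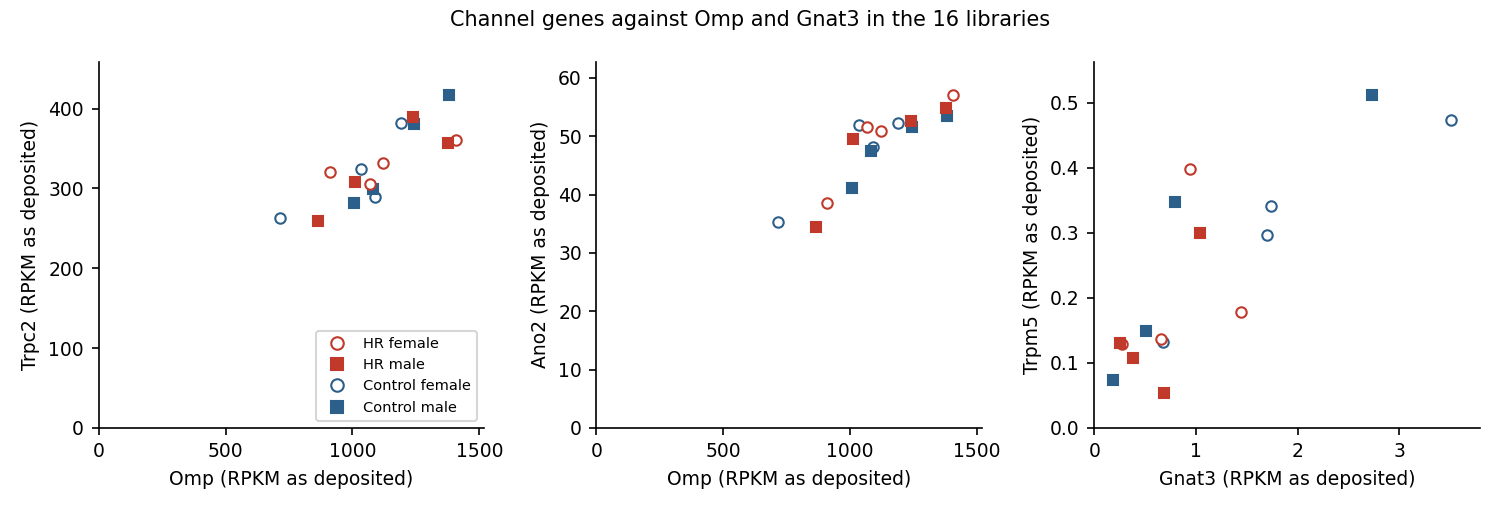
Deposited RPKM of *Trpc2* and *Ano2* against *Omp*, a neuron marker, and of *Trpm5* against *Gnat3*, a marker of solitary chemosensory cells, in the 16 libraries. *Trpc2* and *Ano2* rise with *Omp*, which spans 716 to 1406 RPKM, and HR and Control libraries overlap in each plot.

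The other genes of the pathway were taken from a list of 27, of which 26 were tested. Between HR and Control lines 0 were called by edgeR, beside 0.0242% of all genes, with 0 at an unadjusted *p* under 0.05, beside 3.3%. With DESeq2 it was also 0, where 30 of 16507 genes were called. The median log2 difference was 0.03. Between the sexes edgeR called 0, beside 0.188% of all genes, and DESeq2 0, where it called 180 of 16507 genes. In edgeR 2 of 26, *Gnai2* (female minus male -0.31) and *Plcb2* (0.20), had an unadjusted *p* under 0.05, beside 8.08% of all genes. Among lines edgeR called 10 of 26, or 38.5%, beside 26.3% of all genes. These were *Gnai2* (553 RPKM), *Gnb1* (1515 RPKM), *Calm2* (959 RPKM) and *Enkur*, which binds TRPC channels (53.3 RPKM), the store channel *Itpr3* (6.50 RPKM), the potassium channels *Kcnn3* (10.3 RPKM), *Kcnj3* (1.36 RPKM) and *Kcnma1* (11.8 RPKM), the pacemaker channel *Hcn4* (15.7 RPKM), and *Wnk4* (2.14 RPKM), a kinase upstream of chloride transport. *Gnao1* (143 RPKM), *Plcb2* (2.00 RPKM) and *Stk39*, the kinase that acts on NKCC1 (30.5 RPKM), were not called. Among the relatives of the channels, edgeR called 12 of the 26 tested among lines, beside 26.3% of all genes. These included *Ano4*, *Ano6*, *Ano10*, *Trpm2*, *Trpm6*, *Cnga2*, *Cnga3*, *Cngb1*, *Slc12a4*, *Slc12a5* and *Slc12a7*. Between HR and Control lines edgeR called 0 of the 26 relatives tested, beside 0.0242% of all genes. Of them 1, *Slc12a3* (0.72), had an unadjusted *p* under 0.05, beside 3.3% of all genes. Between the sexes edgeR called 0, beside 0.188% of all genes, with 5 at an unadjusted *p* under 0.05, beside 8.08%. DESeq2 called 0 of these relatives for HR against Control lines, where it called 30 of 16507 genes. Between the sexes it called 1, where it called 180 of 16507 genes. That was *Ano9*, at a female minus male log2 difference of 0.30 (DESeq2 adjusted *p* = 0.0484, edgeR adjusted *p* = 0.222). The counts of *Slc12a3* divided by its RPKM gave a median length of 45598 bases, so its tables disagree. *Slc12a3* and *Ano9* were named after their values were seen.

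By the rule set for likeness, the 2 genes closest in profile over 8 lines, by Pearson *r*, were *Atmin* (0.991) and *Ncbp1* (0.985) for *Trpc2*, *Vmn2r4* (0.964) and *Chpt1* (0.9501) for *Ano1*, and *Exd2* (0.990) and *Cadps* (0.988) for *Ano2*. For *Cnga4* they were *Fbxl13* (0.967) and *Ptpn18* (0.967), for *Trpm4* *Zfp930* (0.963) and *Zfp661* (0.953), for *Trpm5* *Atxn7l2* (0.982) and *Dcn* (0.981), and for *Slc12a2* *Sesn3* (0.969) and *Rnf225* (0.967). Each pair is the highest of 14812 values, or of 13910 for *Trpc2*, and no test is given for a gene chosen this way. The positions of the other genes in GENCODE M21 on GRCm38 are chr7:144588549-144751974 for *Ano1* on the minus strand, chr6:125690419-126040126 for *Ano2* on the plus strand, chr7:105404568-105408742 for *Cnga4* on the plus strand, chr7:45302632-45333780 for *Trpm4* on the minus strand, chr7:143069153-143094642 for *Trpm5* on the minus strand and chr18:57878678-57946821 for *Slc12a2* on the plus strand.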

How the data were processed

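RNA of pooled VNOs was depleted of ribosomal RNA, and directional libraries were read as single ends of 75 nucleotides. The authors aligned with STAR 2.6.1d to GRCm38, without mismatches and without reads of several locations, so a read over a base that differs from the reference is lost. The deposited counts are reads per gene, not normalized, and the counting tool, annotation and use of strand are not given in the sources used here. The deposited RPKM were made by the authors with Cufflinks, apart for each sex. Counts were tested with edgeR 4.0.16 (quasi-likelihood, TMM, filterByExpr at a minimum count of 10, Benjamini-Hochberg over all genes, threshold 0.05) in R 4.3.3, with DESeq2 1.42.0 and limma 3.58.1 as alternatives. *Trpc2*, without counts, could not enter edgeR and was tested on log2(RPKM + 1), which departs from the design set for the other genes; limma on RPKM was chosen after seeing the data. Log2 CPM used a prior count of 2. Line values are means of the male and female library. Male and female libraries of a line deviated together from their group means across 16507 genes (correlations 0.321 to 0.708), so line pairs them. On simulated counts for HR against Control, edgeR recovered 99% of 200 changed genes of 16446 tested. The 99% holds for those counts alone. Recovery of differences as small as those of the channels was not tested. Recovery where the 2 libraries of a line deviate together, as they do here, was not tested either. Genes named are the 7 channels, overlapping genes, relatives with a mean RPKM of at least 1 or past the threshold, listed pathway genes and the 2 closest profiles. The rule for the channels uses no measured value, but they and the lists were chosen with earlier results of these data known. Nothing says that the pools came from separate cohorts, so *p*-values measure the spread between libraries or lines. Comparisons of HR and Control lines rest on 4 lines per group.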

Additional observations from a re-analysis of the deposited data

Results flagged for a closer look

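In 28 groups of 4 libraries, the distance of the highest or lowest library from the rest was set against the range of the group, and 4 libraries stood apart, where chance gives about 1 in 20 groups. The groups reuse the same libraries and are not independent, and no share over all genes is given. The count is thus a description and not a test. *Ano1* was 168 CPM in the HR female library of line 7, with the other 3 between 217 and 219 CPM. *Trpm4* was 43.4 CPM in the Control female library of line 5, with the others between 31.4 and 32.1 CPM. *Trpm5* was 1.65 CPM in the HR female library of line 3, with the others between 0.548 and 0.727 CPM. *Slc12a2* was 1105 CPM in the HR male library of line 6, with the others between 954 and 964 CPM. In each of the 4 cases the library of the other sex from that line was also the lowest or highest of its own group, on the same side. Over all 8 lines, 28.2% of the genes tested had the same line lowest in both sexes and 28.4% the same line highest. The share within groups of 4 is not given.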

How the results depend on the processing

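None of the 6 channels with counts was called between HR and Control lines, between the sexes or in the interaction under any alternative run. What changed was the sign of differences near 0, the calls among lines and, between the sexes, the side of 0.05 of unadjusted sign-flip tests of *Ano1*, *Trpc2* and *Slc12a2*; the cause was not tested. Genes called between HR and Control lines numbered 4, against 30 with DESeq2, 1 with limma on log2(RPKM + 1) line means (0 without a filter on low values), 0 on line sums, in limma-voom, in males alone and in females alone, and 1 to 17 when each line was left out. At an unadjusted *p* under 0.05 these tools gave 207 genes on line sums, 262 in limma-voom, 184 in males and 316 in females. Genes called between the sexes numbered 31, against 19 without a filter on low counts, 180 with DESeq2 and 13 to 25 when each line was left out. With line as a replicate block they numbered 90 in edgeR and 67 in limma, and the block changed no call of a channel. Among lines, 4344 genes were called, against 7042 with DESeq2 and 2556 to 4522 when each line was left out. The HR minus Control difference of *Ano2* turned to -0.0035 on line sums and -0.020 in males alone, and that of *Cnga4* to 0.047 in females alone. Leaving out each line gave -0.043 to 0.14 for *Ano2*, -0.20 to 0.044 for *Cnga4*, -0.0099 to 0.18 for *Slc12a2* and, in limma, -0.063 to 0.11 for *Trpc2*. On log2(RPKM + 1) over lines the ranges were -0.050 to 0.15 for *Ano2*, -0.21 to 0.076 for *Cnga4*, -0.0048 to 0.19 for *Slc12a2* and -0.066 to 0.10 for *Trpc2*. As a log2 ratio to *Omp* the differences were -0.038 for *Trpc2*, -0.021 for *Ano2* and -0.0026 for *Ano1*. The sex difference of *Slc12a2* was 0.0021 in limma, with or without the block, 0.063 on deposited RPKM, -0.058 to 0.015 in edgeR with each line left out and -0.054 to 0.015 in the sign-flip test, and that of *Ano2* was 0.00048 on deposited RPKM. The sex difference of *Ano1* on deposited RPKM was -0.06 (*p* = 0.133, exact sign-flip test), that of *Trpc2* without line 3 was -0.17 (*p* = 0.0156, exact sign-flip test) and that of *Slc12a2* without line 5 was -0.054 (*p* = 0.0312, exact sign-flip test). For *Trpc2*, line 3 was the only line with the female higher, so leaving it out fixed that *p* at the smallest possible. The interaction ranged, with each line left out, from -0.0042 to 0.17 for *Ano2*, -0.034 to 0.12 for *Trpm4*, -0.32 to 0.63 for *Trpm5* and -0.13 to 0.050 for *Slc12a2*. Among lines, the adjusted *p* with DESeq2 was 0.00125 for *Ano1*, 0.0102 for *Trpm5* and 0.000191 for *Slc12a2*, all then past the threshold, and with limma *Ano2* was at 0.05005. With each line left out it was 0.0131 to 0.162 for *Ano2*, 0.00224 to 0.109 for *Cnga4*, 0.0163 to 0.0923 for *Trpm4*, 0.0152 to 0.118 for *Trpm5* and 0.00660 to 0.604 for *Slc12a2* in edgeR. *Trpm5* rests on 10 to 103 counts per library, and the part of depth in its spread was not tested. *Trpc2* has no counts at all, so its error comes from the spread of RPKM alone.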
